A study of Homo sapiens with 6 samples.

Results

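The genes described here are 45 components and regulators of macroautophagy, chosen by symbol from a list of autophagy initiation, conjugation, cargo receptor and lysosome genes, and found as 45 of the 60649 gene rows of the count table. The rule itself used gene names only. The cells were OVCAR5, an established human line that the study used as an ovarian cancer model. From them, mRNA was sequenced in 3 libraries of cells overexpressing METTL3 and 3 libraries of control cells. METTL3 is the catalytic subunit of the enzyme complex that writes N6-methyladenosine (m6A) on mRNA. Both groups were stable lines made with lentivirus and puromycin selection, the controls with the empty vector, although one part of the labels calls the controls parental. The labels name no cisplatin for any of the libraries. Nothing states that the replicates came from separate cultures or transductions, so every p-value here measures only the spread between these libraries. In bulk RNA, fewer cells expressing a gene and less RNA per cell cannot be told apart.

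In macroautophagy the ULK kinase complex and a phosphatidylinositol 3-kinase complex start a membrane sheet, the phagophore, which grows around cargo and closes into an autophagosome that fuses with lysosomes. Growth of the sheet depends on attaching ATG8 proteins (the LC3 and GABARAP subfamilies) to lipid, and these proteins also bind the receptors that carry cargo. TP53INP2, also called DOR, shuttles between nucleus and autophagosome, binds ATG8 proteins and promotes autophagosome formation. Much of the pathway is regulated on proteins, and transcript levels do not measure autophagic flux.

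TP53INP2 was also in a list of leading genes that the study chose partly on these libraries, so its direction here is not independent evidence. Its canonical transcript holds 4 copies of GGACT, a motif at which METTL3 methylates adenosine. They are shown as candidate sites and not as a full set. The paper gives a wider consensus, RRACH, and its other forms were not searched in this transcript. m6A was not measured in the libraries used here. The sequences are from GENCODE release 44 on hg38, plus strand of chromosome 20, written as DNA with the motif in capitals. Site 1 is in coding exon 4 at chr20:34709352-34709380, and the others are in the 3′ UTR in exon 5, at chr20:34710942-34710970, chr20:34711487-34711515 and chr20:34713116-34713144.
TP53INP2 site 1: gcagaggggcctGGACTcggtcccgcccg
TP53INP2 site 2: gtatgtagaagaGGACTgtgagacgtgag
TP53INP2 site 3: agtaggagtccaGGACTcccactgtctca
TP53INP2 site 4: ctttatgtgaggGGACTgaatgcagacac

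At least 1 GGACT was present in the canonical transcript of 42 of the 45 genes (93.3%), against 82.1% of all tested genes. The median density was 0.969 per kilobase of transcript, against 0.914 for all tested genes, and TP53INP2 had exactly the median density of the autophagy genes. The 3 transcripts without the motif were those of MAP1LC3A, ATG5 and LAMP1. A match to these 5 letters is a description of the sequence and not a measured methylation site.

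The total counts ranged from 96633925 to 125463386 per library. The 45 genes held a median of 0.38% of them, with 17 to 72379 counts per gene and library, and all 45 passed the filter on low counts. METTL3 itself reached 152, 165 and 175 CPM (counts scaled to a common library total) in the METTL3 libraries, in replicate order, against 80.6, 68.6 and 71.6 CPM with the vector. The groups did not overlap for METTL3 (two-sided p = 0.1 by exact permutation, which cannot go lower with 3 libraries against 3). Replicate 1 of both groups stood apart. The chi-square per degree of freedom between libraries of the same group was 12.6 and 13.08 for replicates 2 and 3, and 112.2 to 249.8 for pairs that included replicate 1. Counts of calls are therefore given both for all 6 libraries and for the 4 libraries of replicates 2 and 3. The line's epithelial markers (EPCAM, CDH1, KRT7, KRT8, KRT18 and KRT19) were high, and their summed level was 7504 to 8442 CPM with METTL3 and 6016, 6106 and 9488 CPM in vector control replicates 3, 2 and 1. KRT8, at 3129.6 to 5151 CPM, was the largest part of this sum. CDH1 was at 439, 358 and 346 CPM with METTL3 and 201, 184 and 189 CPM in the controls, without overlap. Each of the other epithelial markers was highest in vector control replicate 1. Of the ovarian markers, PAX8 lay between 6.38 and 11.6 CPM, MUC16 between 1.98 and 49.4 CPM, and WT1 at 0 to 0.203 CPM. The highest MUC16 value was in METTL3 replicate 1, against at most 7.2 CPM elsewhere. Of the 6 markers of other cell types, summed at 25.6 to 38 CPM with METTL3 and 15.8 to 23.6 CPM in the controls, PTPRC, CD3E, CD68 and DCN were at or below 0.0709 CPM, PECAM1 reached 21.4 CPM and COL1A1 reached 18.1 CPM. The highest PECAM1 value was also in METTL3 replicate 1, against at most 9.29 CPM elsewhere. The part of these differences in the autophagy results was not tested.

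Per length, the highest of the 45 genes were LAMP1, VMP1, SQSTM1, GABARAPL2 and MAP1LC3B. Levels between genes were compared as CPM per kilobase of exonic sequence, averaged over the 6 libraries. LAMP1, a main glycoprotein of the lysosomal membrane, was highest at 73.7 (52.7 to 88.3 over the libraries). VMP1, an endoplasmic reticulum protein that moves phospholipids between membrane leaflets, followed at 56.4, and SQSTM1 (p62), the receptor for ubiquitinated cargo, at 56. The ranges of these 3 genes overlapped, so their order lies within the spread between libraries. GABARAPL2, an ATG8 protein, came next at 26.9 (25.3 to 29.6), below every library's value for SQSTM1, which lay between 53.7 and 62.6. It was followed by MAP1LC3B at 25.9 (20.8 to 32.7), the LC3 protein most used as an autophagosome marker. TP53INP2 was at position 35 of 45, at 3.09 (1.47 to 3.79), a range that overlapped those of its neighbours WIPI1 and ATG2B. The lowest levels per length were those of PIK3C3 at 0.873, MAP1LC3A at 0.719 and GABARAP at 0.12. The values divided by the longest transcript instead kept 3 genes among the 5 highest. Their order was then SQSTM1 at 149, VMP1 at 130.4 and LAMP1 at 80.7, so it depended on the length used.

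**Figure D1:**
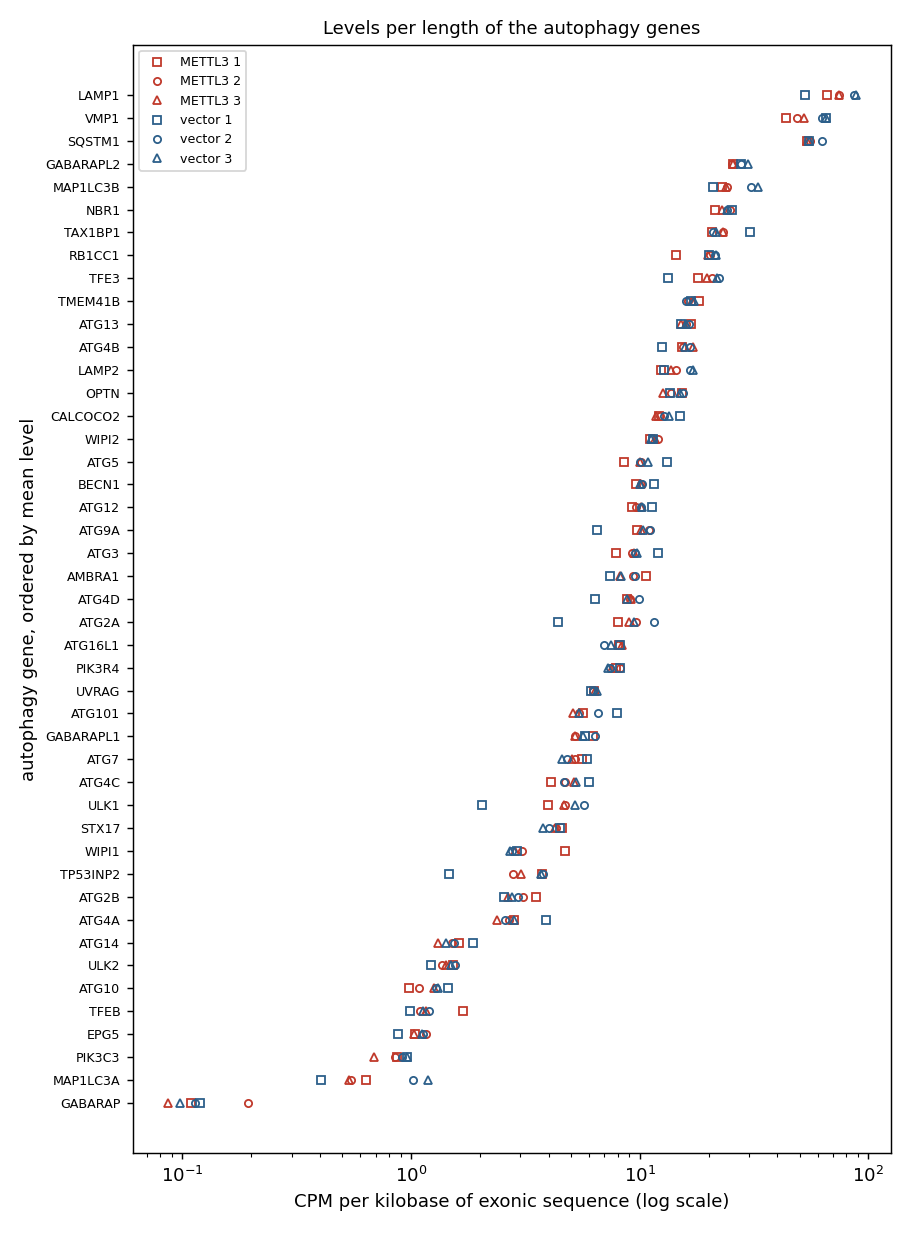
Level of each of the 45 autophagy genes in CPM per kilobase of exonic sequence on a log axis, with 1 point per library (red, METTL3; blue, vector; square, circle and triangle for replicates 1, 2 and 3). Levels run from 0.12 for GABARAP to 73.7 for LAMP1, and vector control replicate 1 lies to the left for ULK1, ATG2A and TP53INP2.

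With all 6 libraries, METTL3 overexpression gave no call among the autophagy genes. Of the 45, 0 had an adjusted p under 0.05 in the quasi-likelihood test of edgeR, adjusted by the Benjamini-Hochberg method, and the same was true of all 22038 tested genes (0%). An unadjusted p under 0.05 was found for 1 of them, VMP1, against 8.3% of all tested genes. DESeq2 called 0 of the 45 and 1.28% of all tested genes. In edgeR METTL3 itself did not pass (log2 fold change 1.16, SE 0.117, adjusted p = 0.072). The 0 calls therefore do not show that the autophagy genes were unchanged. The median log2 fold change of the 45 was -0.08, against -0.02 for all tested genes, with 22 above 0 and 23 below. In 7 genes (15.6%) the 3 METTL3 values lay below all 3 control values, and in 0 genes above them. Among all tested genes the groups did not overlap in 17.4%, with METTL3 lower in 8.93%.

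In replicates 2 and 3 alone, 8 of the 45 genes (17.8%) passed the test and all 8 were lower with METTL3. They were TP53INP2, MAP1LC3A, MAP1LC3B, OPTN, ULK1, VMP1, LAMP1 and LAMP2. Of all 22046 tested genes, 15.2% passed, 8.59% lower and 6.66% higher with METTL3. The share of autophagy genes called was thus close to that of all genes, while the calls were in 1 direction. The median log2 fold change was -0.05, against -0.00 for all tested genes, and 35 of the 45 values were below 0. With the replicate number as a block, 19 of the 45 genes passed, 16 lower and 3 higher (TAX1BP1, ATG7 and ATG16L1). Of all tested genes, 24.7% passed with the block, 13.4% lower and 11.3% higher. The block left few degrees of freedom and assumes a pairing of libraries that the labels do not state. Both limits hold for every call with the block given below. DESeq2 called the same 8 genes in replicates 2 and 3, and 14.6% of all tested genes. After removal of the GC and length dependence within each library, 13 passed, 9 lower and 4 higher, against 22.3% of all tested genes (9.63% lower and 12.7% higher). Over all genes, that removal turned the split from 1469 higher and 1893 lower to 2793 higher and 2122 lower.

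**Figure D2:**
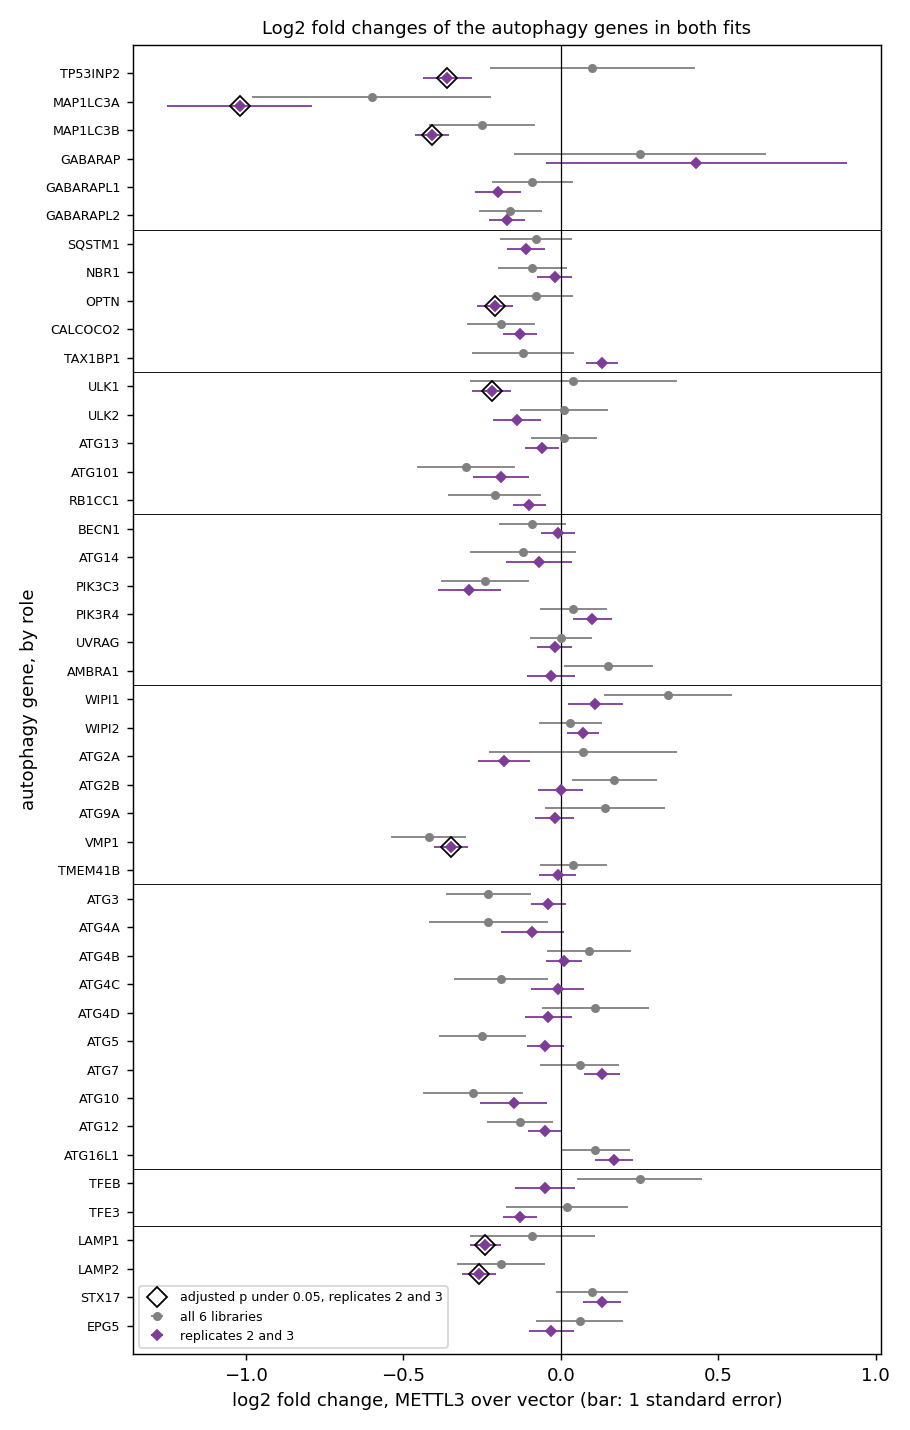
Log2 fold change of METTL3 over vector for the 45 autophagy genes, grouped by role with lines between groups (grey circles, all 6 libraries; purple diamonds, replicates 2 and 3; bars, 1 standard error; outlined diamonds, adjusted p under 0.05). The 8 outlined genes all lie to the left of 0, from -1.02 for MAP1LC3A to -0.21 for OPTN, and TP53INP2 changes side between the fits.

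TP53INP2 and the ATG8 family gave 3 of the 8 calls, TP53INP2, MAP1LC3A and MAP1LC3B. TP53INP2 (ENSG00000078804.13, chr20:34704339-34713439) was at 15.6, 11.7 and 12.7 CPM in METTL3 replicates 1, 2 and 3 and at 6.12, 15.8 and 15.4 CPM in the control replicates. Control replicate 1 was the lowest library, METTL3 replicate 1 lay between the other controls, and the groups overlapped. Fitted over all 6 libraries, TP53INP2 had a log2 fold change of 0.10 (SE, the standard error, 0.325; adjusted p = 0.943 in the quasi-likelihood test of edgeR, Benjamini-Hochberg adjusted). In replicates 2 and 3 TP53INP2 fell, with a log2 fold change of -0.36 (SE 0.0792, adjusted p = 0.00656 in the same test). Its direction therefore turned with replicate 1. The difference within number 1 was 1.35 on the log2 scale, against -0.43 and -0.28 within numbers 2 and 3. Its paralog TP53INP1, a p53-induced protein that also binds ATG8 proteins, was at 8.7, 6.7 and 6.17 CPM with METTL3 and 3.8, 6.76 and 6.37 CPM in the controls. TP53INP1 likewise had its lowest value in control replicate 1. Its log2 fold change was 0.35 on all 6 libraries (SE 0.246, adjusted p = 0.688, edgeR) and -0.03 in replicates 2 and 3 (SE 0.102, adjusted p = 0.897, edgeR).

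MAP1LC3B (ENSG00000140941.14, chr16:87383953-87404779) was at 115, 121 and 120.3 CPM with METTL3 and at 105, 155 and 165 CPM in the controls. The METTL3 values lay close together and below control replicates 2 and 3, and control replicate 1 was the lowest of all. On all 6 libraries MAP1LC3B had a log2 fold change of -0.25 (SE 0.169, edgeR adjusted p = 0.674). It fell in replicates 2 and 3 by 0.41 on the log2 scale (SE 0.0541, edgeR adjusted p = 1.25e-04), the smallest p among the 45 genes, and it was the 1 autophagy gene called when control replicate 1 alone was left out (adjusted p = 0.0499, against 1.62% of all tested genes called). It has a near-identical copy, MAP1LC3B2, and how reads fitting both were counted is not given in the sources used here. MAP1LC3A, a second LC3 protein, was scarce, at 0.735, 0.629 and 0.614 CPM with METTL3 and 0.464, 1.17 and 1.36 CPM in the controls, from 44 to 150 counts. Control replicates 2 and 3 were the 2 highest libraries and control replicate 1 the lowest. Over all 6 libraries the log2 fold change of MAP1LC3A was -0.60 (SE 0.379, edgeR adjusted p = 0.66). It fell in replicates 2 and 3 by 1.02 on the log2 scale (SE 0.23, edgeR adjusted p = 0.0072), the largest fitted value of the 45 genes there.

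The GABARAP subfamily, which acts mainly in late steps such as autophagosome closure and fusion, gave no call in either fit. GABARAPL2 was at 76.9, 76.2 and 76.7 CPM with METTL3 and at 83.8, 83.1 and 89.1 CPM in the controls. It was lower in all 3 METTL3 libraries with no overlap and with little spread. Its log2 fold change was -0.16 on all 6 libraries (SE 0.099, edgeR adjusted p = 0.661) and -0.17 in replicates 2 and 3, where it was the gene just outside the threshold (SE 0.0566, edgeR adjusted p = 0.0535) and was called in 5 of the 8 alternatives, with the replicate block (adjusted p = 0.00112), without GC and length trends (0.00192), with upper-quartile scaling (0.0448), without a filter (0.0472) and with counts divided by 2 (0.0491). GABARAPL1 was at 25.3, 21.1 and 21.1 CPM with METTL3 and 23.3, 25.7 and 22.8 CPM in the controls, with overlapping groups. Its log2 fold change was -0.09 on all 6 libraries (SE 0.128, edgeR adjusted p = 0.843) and -0.20 in replicates 2 and 3 (SE 0.0728, edgeR adjusted p = 0.0779), and it was called with the replicate block (adjusted p = 0.00814).

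GABARAP was almost absent from the table, at 0.213, 0.379 and 0.168 CPM with METTL3 and 0.232, 0.221 and 0.19 CPM in the controls, from 17 to 47 counts. The groups overlapped, and the highest value was METTL3 replicate 2. Of its exonic bases, 35.4% also belong to exons of another gene on the same strand, ENSG00000262526, which was listed at 0 in all 6 libraries. How reads that fit several genes were counted is not given, and the part of this overlap in the low level was not tested. The fold change of GABARAP was not distinguishable from 0 at this depth (log2 0.25 on all 6 libraries, SE 0.4, edgeR adjusted p = 0.863, and 0.43 in replicates 2 and 3, SE 0.478, edgeR adjusted p = 0.634).

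**Figure D3:**
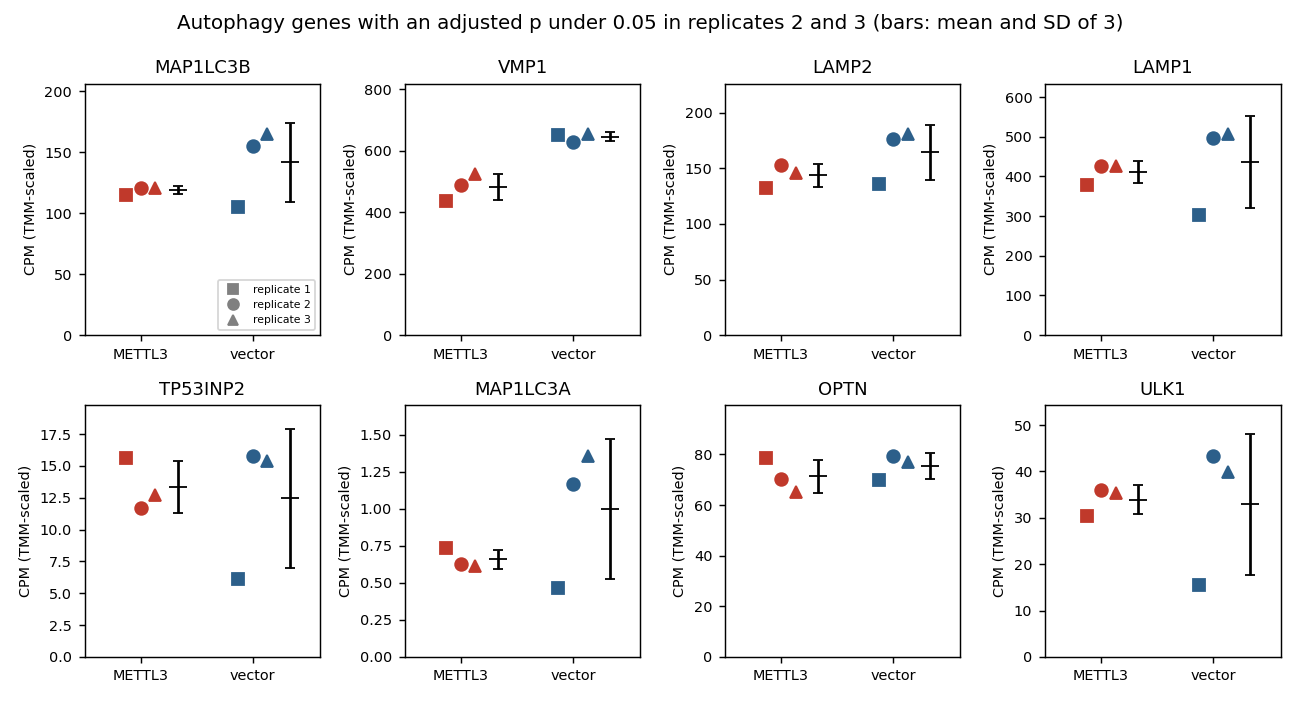
CPM in each library for the 8 autophagy genes with an adjusted p under 0.05 in replicates 2 and 3 (red, METTL3; blue, vector; square, circle and triangle for replicates 1, 2 and 3; bars, mean and SD of the 3 libraries). METTL3 circles and triangles lie below the vector ones in all 8 panels, whereas the blue square of vector replicate 1 lies at or below the METTL3 values for 5 genes: MAP1LC3B, LAMP1, TP53INP2, MAP1LC3A and ULK1.

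Among the 5 cargo receptors, OPTN fell in replicates 2 and 3 and the others did not pass. OPTN (optineurin, ENSG00000123240.17, chr10:13099449-13138308), a receptor in mitophagy and in clearance of bacteria, was at 78.4, 70.3 and 65.2 CPM with METTL3 and 69.7, 79.5 and 76.9 CPM in the controls. The groups overlapped through METTL3 replicate 1 and control replicate 1. Its log2 fold change was -0.21 in replicates 2 and 3 (SE 0.0577, edgeR adjusted p = 0.0245) and -0.08 on all 6 libraries (SE 0.117, edgeR adjusted p = 0.849). CALCOCO2 (NDP52), also a receptor for bacteria and mitochondria, was at 101, 102 and 97.5 CPM with METTL3 and 125, 106 and 111 CPM in the controls. All 3 METTL3 values were lower, by a log2 fold change of -0.19 on all 6 libraries (SE 0.109, edgeR adjusted p = 0.65) and -0.13 in replicates 2 and 3 (SE 0.0543, edgeR adjusted p = 0.145). With the replicate block CALCOCO2 passed (adjusted p = 0.019), as did SQSTM1 (0.0244) and, in the other direction, TAX1BP1 (0.0108). SQSTM1 lay between 405 and 472 CPM and NBR1, which binds ubiquitin like SQSTM1, between 179 and 212 CPM. TAX1BP1 was at 277 CPM in control replicate 1 and between 189 and 213 CPM in the other 5 libraries.

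Of the ULK kinase complex, which receives the nutrient signal from mTORC1 and AMPK, ULK1 fell in replicates 2 and 3. ULK1, its catalytic subunit (ENSG00000177169.10, chr12:131894622-131923150), was at 30.4, 36 and 35.4 CPM with METTL3 and 15.5, 43.4 and 39.8 CPM in the controls. Control replicate 1 was the lowest library and the other controls were the highest, so the groups overlapped. The log2 fold change was 0.04 on all 6 libraries (SE 0.328, edgeR adjusted p = 0.978) and -0.22 in replicates 2 and 3 (SE 0.0621, edgeR adjusted p = 0.0254). This call was lost when the GC and length dependence was removed (log2 fold change -0.11, edgeR adjusted p = 0.116). The kinase ULK2 and the scaffold subunits ATG13, ATG101 and RB1CC1 (FIP200) had log2 fold changes from -0.19 to -0.06 in replicates 2 and 3, and none passed without the block. RB1CC1 was lowest in METTL3 replicate 1, at 110.0 CPM against 151 to 164 CPM elsewhere.

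The phosphatidylinositol 3-kinase complex gave no call in either fit. PIK3C3 (VPS34), its lipid kinase, was at 13.2, 12.9 and 10.4 CPM with METTL3 and 14.6, 13.8 and 14.6 CPM in the controls. All METTL3 values were below all control values, with the widest difference within number 3. Its log2 fold change was -0.24 on all 6 libraries (SE 0.14, edgeR adjusted p = 0.65) and -0.29 in replicates 2 and 3 (SE 0.0999, edgeR adjusted p = 0.0739), and it was called with the replicate block (adjusted p = 0.00192), without a filter (0.0158) and without GC and length trends (0.0308). The scaffold BECN1 (Beclin 1), the autophagy-specific subunit ATG14, the pseudokinase PIK3R4, UVRAG and AMBRA1 had log2 fold changes from -0.07 to 0.10 in replicates 2 and 3. UVRAG was the steadiest of these, between 45 and 47.6 CPM in all 6 libraries.

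Among the 7 genes that supply membrane to the phagophore, VMP1 was the one whose groups did not overlap. VMP1 (ENSG00000062716.13, chr17:59707192-59842255) was at 436, 488 and 523 CPM with METTL3 and 653, 629 and 655 CPM in the controls. Every METTL3 library was below every control, including control replicate 1, which for this gene was close to the other controls. The mean was 483 ± 43.7 CPM with METTL3 and 646 ± 14.7 CPM in the controls (SD, n = 3). On all 6 libraries the log2 fold change was -0.42 (SE 0.12) with an unadjusted p of 0.00737 and an adjusted p of 0.451 in the quasi-likelihood test of edgeR, Benjamini-Hochberg adjusted. In replicates 2 and 3 VMP1 fell by 0.35 on the log2 scale (SE 0.0539, edgeR adjusted p = 4.71e-04). The differences within numbers 1, 2 and 3 were -0.58, -0.36 and -0.32 on the log2 scale. TMEM41B, an endoplasmic reticulum lipid scramblase that works with VMP1, lay between 68.4 and 78 CPM, with log2 fold changes of 0.04 and -0.01 in the 2 fits and SE of 0.105 and 0.0594.

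The lipid transfer protein ATG2A and the scramblase ATG9A showed the same low value in control replicate 1 as ULK1. ATG2A was at 34.4 CPM there and at 63.1 to 90.6 CPM in the other libraries, and it was called lower in replicates 2 and 3 with the replicate block (edgeR adjusted p = 0.00126). In the same library ATG9A was at 30.8 CPM, against 46 to 52.4 CPM. Of ATG9A's exonic bases, 38.8% overlap exons of ENSG00000284820, which had 2 to 17 counts per library. WIPI1, which binds the lipid made by PIK3C3, was at 16 CPM in METTL3 replicate 1 and between 9.19 and 10.4 CPM elsewhere, while WIPI2, which recruits ATG16L1, lay between 99.3 and 108 CPM in every library.

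The conjugation machinery, which attaches ATG8 proteins to lipid, gave no call in either fit, although 3 of its 10 genes did not overlap between the groups, against 17.4% of all tested genes. ATG3, the enzyme that transfers ATG8 proteins to lipid, was at 48.1, 56.7 and 57.7 CPM with METTL3 and 73.6, 58 and 59.2 CPM in the controls. The gap between the groups was small in replicates 2 and 3, where the log2 fold change was -0.04 (SE 0.055, edgeR adjusted p = 0.742), and the wide difference lay within number 1 (-0.61). ATG10, the corresponding enzyme for ATG12, was at 5.32, 5.89 and 6.87 CPM with METTL3 and 7.86, 7.01 and 7.13 CPM in the controls. ATG12, the ubiquitin-like protein joined to ATG5, was at 82.4, 85 and 89.5 CPM with METTL3 and 100.3, 90.1 and 90.8 CPM in the controls. In both genes METTL3 replicate 3 came closest to the controls, and the log2 fold changes in replicates 2 and 3 were -0.15 (SE 0.106) and -0.05 (SE 0.0538). ATG5 was at 74.7 CPM in control replicate 1 and between 48.3 and 61.3 CPM elsewhere. ATG7, which activates both conjugation systems, and ATG16L1, which places them on the membrane, had log2 fold changes of 0.13 and 0.17 in replicates 2 and 3 (edgeR adjusted p = 0.147 and 0.071) and were called higher with the replicate block (adjusted p = 0.0357 and 0.00301). The 4 ATG4 proteases, which process ATG8 proteins, had log2 fold changes from -0.09 to 0.01 in replicates 2 and 3.

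The lysosomal membrane proteins fell together in replicates 2 and 3, whereas the 2 fusion factors did not pass there. LAMP1 (ENSG00000185896.11, chr13:113297239-113323672) was at 379, 426 and 427 CPM with METTL3 and 302, 498 and 507 CPM in the controls. Control replicate 1 was the lowest library and the other controls were the highest. LAMP1 had a log2 fold change of -0.09 on all 6 libraries (SE 0.198, edgeR adjusted p = 0.913) and fell by 0.24 on the log2 scale in replicates 2 and 3 (SE 0.0497, edgeR adjusted p = 0.00434). LAMP2 (ENSG00000005893.16, chrX:120426148-120469365), its relative, needed for autophagosome maturation, was at 132, 153 and 146 CPM with METTL3 and 136, 176 and 181 CPM in the controls. METTL3 replicate 1 and control replicate 1 were the lowest libraries. LAMP2 had a log2 fold change of -0.19 on all 6 libraries (SE 0.14, edgeR adjusted p = 0.692) and fell by 0.26 on the log2 scale in replicates 2 and 3 (SE 0.0532, edgeR adjusted p = 0.00385). The SNARE protein STX17 lay between 33.6 and 40.8 CPM, with a log2 fold change of 0.13 in replicates 2 and 3 (SE 0.0607, edgeR adjusted p = 0.176), and it was called higher once the GC and length dependence was removed (log2 fold change 0.16, edgeR adjusted p = 0.0367). The tether EPG5 lay between 19.5 and 25.9 CPM.

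TFEB and TFE3 are transcription factors that switch on lysosomal and autophagy genes through sites built around CACGTG. TFEB was at 11.3 CPM in METTL3 replicate 1 and between 6.63 and 8.02 CPM elsewhere. TFE3 was at 55.8 CPM in control replicate 1 and between 75.6 and 93.8 CPM elsewhere. Neither passed in either fit without the block, and TFE3 was called lower in replicates 2 and 3 with it (edgeR adjusted p = 0.0178). The promoters were searched for this motif, which reads the same on both strands. RefSeq promoters (GRCh38.p14, 250 bases before to 50 after a start site) matched 38 of the 45 genes, with 49 start sites, and LAMP2 was not among the matched genes. CACGTG was in 3 of the 49 (6.12%), those of LAMP1, ATG3 and ATG14, against 7.26% of 35116 promoters. The longer TCACGTGA, which contains CACGTG, was in 2 of the 49 (4.08%), those of LAMP1 and ATG3, against 0.98% of all promoters. LAMP1 held 6 copies of CACGTG, and it was the 1 promoter of the 35116 with that many. The 250 bases before its start, chr13:113296989-113297238 on the plus strand, are shown because they hold 5 whole copies, in capitals, and the window chr13:113297226-113297255 holds the copy that spans the start. ATG3 held 2 copies, and its window chr3:112561940-112561969, with the longer motif, and the ATG14 window chr14:55411834-55411863, both on the minus strand, are shown for comparison. A match is a description and not a bound site.
LAMP1 upstream: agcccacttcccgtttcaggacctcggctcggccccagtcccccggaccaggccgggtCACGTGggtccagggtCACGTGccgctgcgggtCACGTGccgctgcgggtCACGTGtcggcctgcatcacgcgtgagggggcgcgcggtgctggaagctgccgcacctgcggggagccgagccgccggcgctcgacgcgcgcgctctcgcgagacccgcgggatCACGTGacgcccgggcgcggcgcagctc
LAMP1 at the start: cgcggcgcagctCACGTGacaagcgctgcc
ATG3: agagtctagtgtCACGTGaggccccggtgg
ATG14: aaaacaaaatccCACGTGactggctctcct

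Across the 45 genes, many of the differences between libraries lay in control replicate 1. This library held the highest or lowest of the 6 values in 32 of the 45 genes (71.1%), against 54.8% of all tested genes, and METTL3 replicate 1 did so in 19 (42.2%, against 48.8%). Relative to the mean of control replicates 2 and 3, control replicate 1 deviated by -1.42 (ULK1) to 0.53 (ATG4A) on the log2 scale. The GC contents of these 2 transcripts were 64.2% and 42.0%. Not every gene followed GC content: LAMP2, at 36.0%, deviated by -0.39, and TFEB, at 64.7%, by -0.24. Over the 45 genes this deviation had a correlation of -0.63 with GC content (Spearman's rho -0.50), against -0.22 over all tested genes (rho -0.23). Its correlation with log2 transcript length was -0.06 over the 45 genes (rho -0.15) and -0.24 over all tested genes (rho -0.29). These correlations describe genes that share 1 library and are not independent. For the log2 fold changes of replicates 2 and 3, the correlation with GC content over the 45 genes was -0.22 (rho -0.07). Over all tested genes it was -0.04 (rho -0.03).

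**Figure D4:**
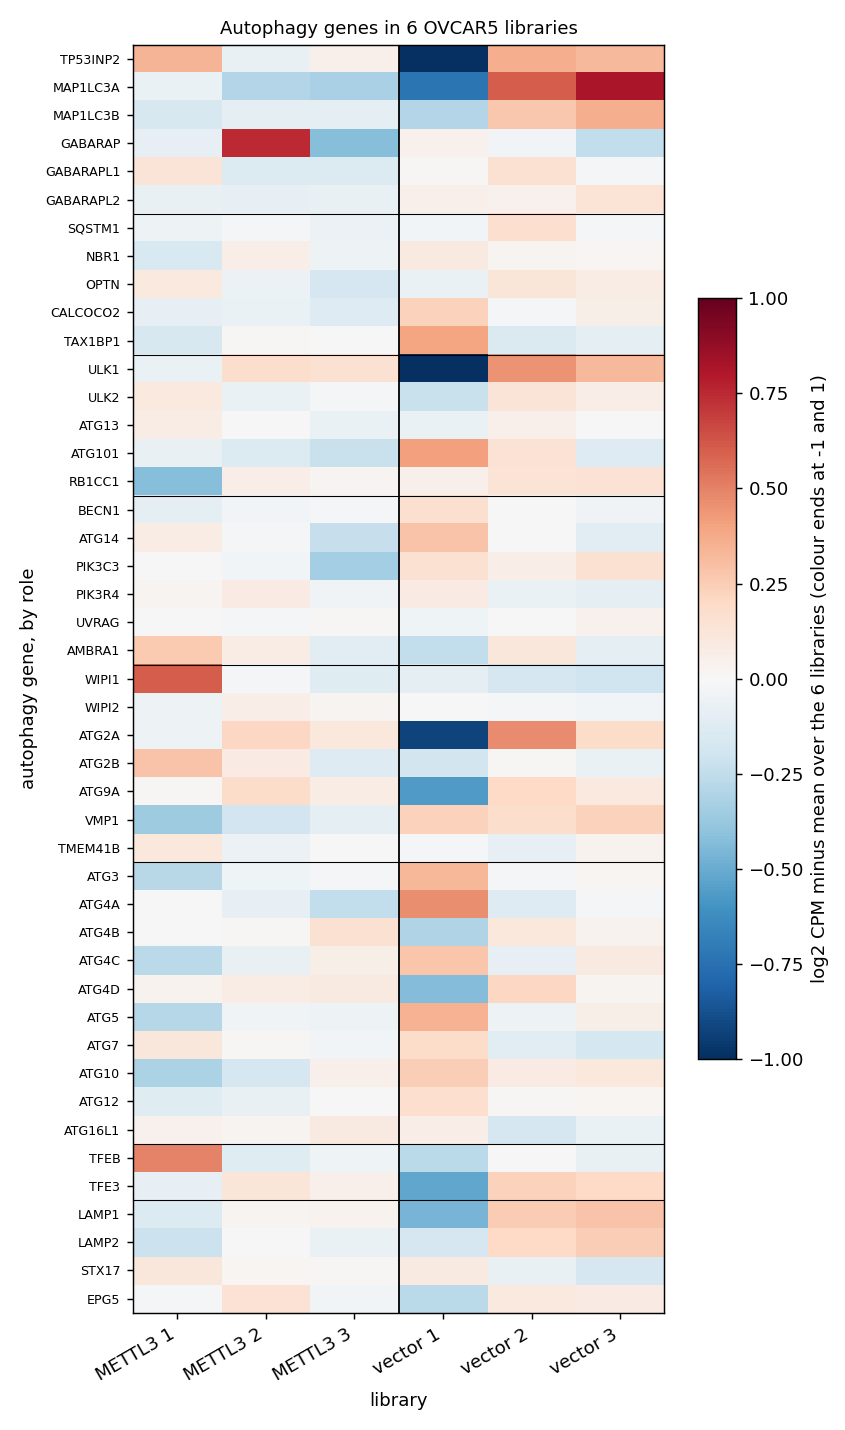
Log2 CPM of each autophagy gene minus its mean over the 6 libraries, in columns by library and rows by role (red above, blue below the mean, colours end at -1 and 1). The column of vector control replicate 1 holds strong colours, blue for ULK1, TP53INP2 and ATG2A and red for ATG4A and TAX1BP1, and VMP1 is blue in all 3 METTL3 columns.

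Within replicate numbers, number 1 went its own way. The log2 differences of METTL3 minus vector ranged from -0.63 (ATG5) to 1.35 (TP53INP2) within number 1, where 14 genes were beyond 0.5 in either direction, against 2 genes within number 2 and 1 within number 3. Numbers 2 and 3 had the same sign for 33 of the 45 genes, and in 19 of these (57.6%) number 1 had the opposite sign, against 43% of all tested genes. METTL3 was lower within all 3 numbers for 12 genes (26.7%, against 20% of all tested genes) and higher for 2 (4.44%, against 19.6%).

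**Figure D5:**
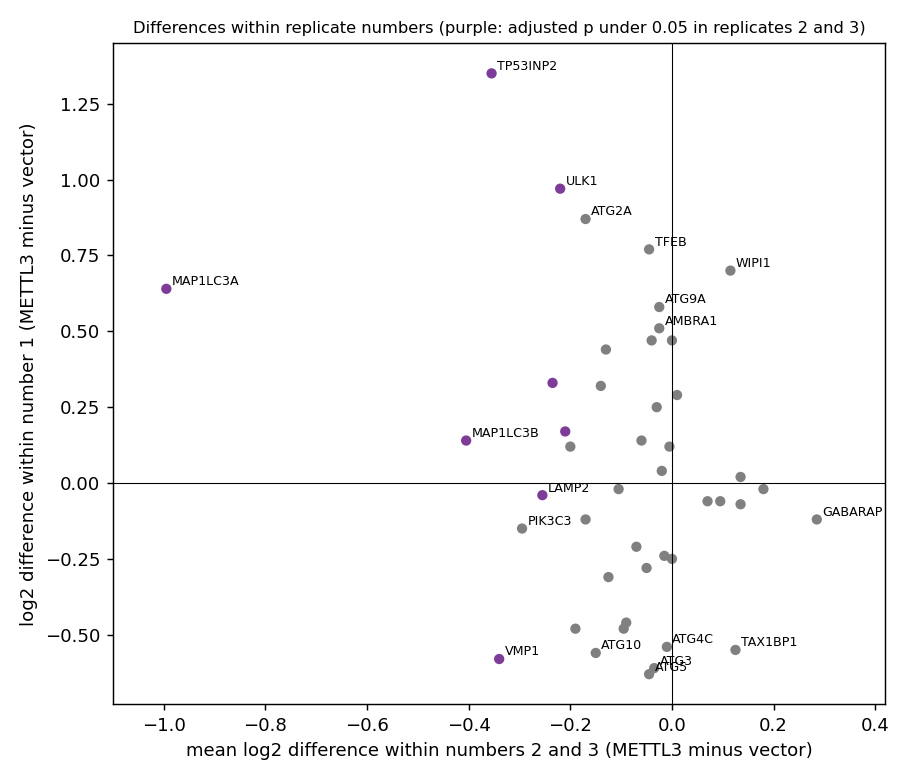
Log2 difference METTL3 minus vector within replicate number 1 (vertical) against the mean of numbers 2 and 3 (horizontal) for the 45 autophagy genes, with purple for an adjusted p under 0.05 in replicates 2 and 3. TP53INP2, ULK1 and MAP1LC3A lie at upper left, with opposite signs, and VMP1 lies at lower left, with the same sign in all 3 numbers.

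Outside the 45, 134 genes in 8 lists of related processes also gave 0 calls on all 6 libraries, of 132 tested. In replicates 2 and 3, 3 rose and 17 fell of 133 tested, a share close to that of all tested genes (15.2%, with 8.59% lower and 6.66% higher). The 33 lysosomal hydrolase genes held 6 that fell and 1 that rose. The acid sphingomyelinase gene SMPD1 was at 20.4 and 21.2 CPM with METTL3 and 30 and 29.2 CPM in the controls and fell by 0.51 on the log2 scale (edgeR adjusted p = 8.78e-05), against a log2 fold change of -0.27 on all 6 libraries (adjusted p = 0.755). LIPA, the lysosomal acid lipase, rose from 79.8 and 83.7 CPM to 103 and 101 CPM (log2 fold change 0.31, edgeR adjusted p = 0.00113), against 0.21 on all 6 libraries (adjusted p = 0.768). In both genes the groups overlapped through control replicate 1, at 14.9 CPM for SMPD1 and 129 CPM for LIPA.

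Of the 16 vacuolar ATPase subunits, which acidify lysosomes, 3 fell and 0 rose. ATP6V1D was lower in every METTL3 library, at 44.4, 50.7 and 53 CPM against 73.7, 62.3 and 64 CPM, with a log2 fold change of -0.29 in replicates 2 and 3 (edgeR adjusted p = 0.00288) and -0.43 on all 6 libraries (adjusted p = 0.439). Of the 11 endoplasmic reticulum-phagy genes 1 fell, the receptor RETREG1 (FAM134B), at 1.58, 0.815 and 0.892 CPM against 1.71, 1.69 and 1.92 CPM, with no overlap and a log2 fold change of -1.08 in replicates 2 and 3 (edgeR adjusted p = 0.00195) and -0.69 on all 6 libraries (adjusted p = 0.582). Of the 13 mitophagy genes 3 fell and 1 rose in replicates 2 and 3. NIPSNAP1, a mitochondrial tag for damaged organelles, fell (log2 fold change -0.23, edgeR adjusted p = 0.00806). BCL2L13, an outer membrane receptor, rose (0.19, edgeR adjusted p = 0.0283). On all 6 libraries these 2 genes had -0.09 and 0.12 (edgeR adjusted p = 0.825 and 0.742), with overlapping groups. Of the 17 fusion genes 2 fell and 0 rose.

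Of the 27 genes of nutrient sensing, TSC2, an inhibitor of mTORC1, rose and DEPTOR, an inhibitory part of the mTOR complexes, fell. DEPTOR was at 2.67, 1.95 and 1.52 CPM with METTL3 and 2.33, 2.72 and 2.43 CPM in the controls, with overlapping groups. The log2 fold change of DEPTOR was -0.57 in replicates 2 and 3 (edgeR adjusted p = 0.041) and -0.29 on all 6 libraries (edgeR adjusted p = 0.735). TSC2 was at 122, 127 and 121 CPM with METTL3 and 68, 112 and 100.2 CPM in the controls, with no overlap. Its log2 fold change was 0.22 in replicates 2 and 3 (edgeR adjusted p = 0.0214) and 0.40 on all 6 libraries (edgeR adjusted p = 0.604). Of the 11 other core autophagy genes 1 fell in replicates 2 and 3, TECPR1, a tether of autophagosomes (log2 fold change -0.29, edgeR adjusted p = 0.0142). On all 6 libraries TECPR1 had -0.03 (edgeR adjusted p = 0.975), with its lowest value, 20.3 CPM, in control replicate 1. Of the 5 tested genes for other MiT/TFE and FOXO factors, 0 passed in edgeR's test in either fit, and 1 had an unadjusted p under 0.05 on all 6 libraries.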

How the data were processed

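RNA-seq of OVCAR5 cells gave 3 METTL3-overexpressing and 3 vector control libraries. The authors deposited raw counts per gene, whole numbers without normalization or filtering. The submitters' processing notes name fastp, HISAT2, featureCounts (Subread) and the build GRCh38 (hg38), and versions are not given in the sources used here. The paper gives single-end reads from an NEBNext kit, and the labels give a stranded TruSeq kit with paired ends. Even numbers made up 67.6% to 70.49% of low counts (1 to 20), as when both mates of a pair are counted. The printed counts may then be about 2 times the fragments, so counts divided by 2 were also tested.

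Rows were matched by identifier to GENCODE release 44 (60463 of 60649 rows), and all 45 genes were found. In R 4.3.3 with edgeR 4.0.16, genes passing filterByExpr were scaled by TMM and tested with glmQLFit (robust) and glmQLFTest over the whole table, with p adjusted by Benjamini-Hochberg and called under 0.05. Each SE is the absolute log2 fold change divided by the root of F. CPM are the deposited counts scaled by the TMM library sizes. DESeq2, which the study also used, was an alternative, here in version 1.42.0. The study's own version of it is not given in the sources used here. The code was tested on simulated data with 200 genes changed 2-fold. There edgeR recovered 41% of them with all 6 libraries and 65% with replicates 2 and 3. Of its calls, 3.53% with all 6 libraries and 6.47% with replicates 2 and 3 were unchanged genes. The simulated counts were drawn independently for each gene, without the shift of replicate 1 seen in the data. The other alternatives were other size factors, other filters, an adjusted p under 0.01, the replicate block and each library left out. Removing trends with GC content and length (splines with 5 degrees of freedom each) was added after seeing the data.

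The groups share replicate numbers. Deviations of same-numbered libraries from their group means had correlations of 0.3343, 0.1203 and 0.1747, each above 0.1, which met the rule set here for pairing. The main fits had no block, and the replicate block was an alternative. The labels do not state this pairing, and libraries with numbers 2 and 3 crossed gave 0.1328 and 0.2054. The autophagy genes, the lists and the use of replicates 2 and 3 were chosen with earlier results of these data known. Values in every library are given for TP53INP2, the ATG8 family, each gene called in either fit, each gene without overlap and the extremes per length. Named outside the 45 are METTL3, TP53INP1 and, in each list, the gene with the smallest p in each direction among those called in replicates 2 and 3, except 1 gene that is not reported here.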

Additional observations from a re-analysis of the deposited data

How the results depend on the processing

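On all 6 libraries, the count of autophagy genes called was 0 with edgeR under TMM, other size factors, upper-quartile scaling, DESeq2, other filters, halved counts, removal of the GC and length trend and the replicate block. Leaving out 1 library gave 0 to 1, with MAP1LC3B called without vector control replicate 1, and replicates 2 and 3 alone gave 8. The related lists gave 0 to 1 with 1 library left out and 20 in replicates 2 and 3. Genes without overlap numbered 7 (17.4% of all tested genes did not overlap). With DESeq2's size factors they numbered 9, of which 2 were higher with METTL3, and with upper-quartile scaling 8. They ranged from 9 to 19 with 1 library left out (19 without vector control replicate 1). In replicates 2 and 3, where 2 libraries are set against 2, they numbered 27. Fewer libraries overlap less often in any gene. The shares of all tested genes under these choices are not given here, so these counts are no result about the autophagy genes.

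In replicates 2 and 3 the count of 8 became 19 with the replicate block and 13 with the GC and length trend removed. It was 12 without a filter on low counts, 1 higher and 11 lower with METTL3. With upper-quartile scaling and with halved counts it was 9, all lower. The shares of all tested genes without a filter, with upper-quartile scaling and with halved counts are not given here. All 8 genes were also among the 19, and 7 were among the 13. The block changed no call on all 6 libraries. Of the 8 genes, 7 were called in all 8 alternatives and ULK1 in 7. At an adjusted p under 0.01, 6 were called, without OPTN and ULK1. The share of all tested genes at that threshold is not given here. Of the 45 log2 fold changes on all 6 libraries, 12 changed sign without vector control replicate 1, 3 without METTL3 replicate 1, and 0 to 2 without each other library. Of the 16 genes given in every library, 4 did. That of TP53INP2 (0.10) ranged from -0.23 without vector control replicate 1 to 0.33 and was also reversed, to -0.02, without METTL3 replicate 1. That of ULK1 (0.04) ranged from -0.29 without vector control replicate 1 to 0.31. That of LAMP1 (-0.09) ranged from -0.29 to 0.06, being positive without vector control replicates 2 (0.04) and 3, and that of GABARAP (0.25) ranged from -0.14 without METTL3 replicate 2 to 0.49. TP53INP2 and ULK1 were also reversed in replicates 2 and 3, at -0.36 and -0.22. The causes were not tested. With 2 libraries per group, the calls in replicates 2 and 3 rest on the spread of 2.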
